A study of Mus musculus with 6 samples.

Results

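The 44 genes described here encode the machinery of DNA replication and of entry into S phase, and all of them were found by symbol among the 16108 genes of the deposited expression table. They were compared in RAW264.7 cells, a mouse macrophage-like line used in the third passage, that had been seeded on acoustic devices and left overnight to attach. In 3 acoustics-off libraries the devices stayed undriven for 48 h, and in 3 acoustics-on libraries they were driven for 48 h at 18 V peak to peak and 5 kHz. Cells on petri dishes, which the design lists as a control, were not analysed here. Both groups are therefore 1 cell line on the same kind of device, and no label ties the 3 libraries of a group to separate cultures. The p-values therefore measure only how far these libraries spread, and that spread may be technical.

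Replication begins when the origin recognition complex, with CDC6 and CDT1, loads the MCM2 to MCM7 helicase on DNA in G1. Cyclin E with CDK2, and E2F transcription factors that are released from retinoblastoma proteins, then drive entry into S phase, where CDC45 and the GINS complex switch the helicase on and the polymerases copy the strands behind it. RAW264.7 cells are a proliferating tumour line, and the genes of this machinery are known for being transcribed mainly in dividing cells. In a bulk library a change in the share of cells in S phase and a change in transcript per cell cannot be told apart.

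With acoustics on, most of the replication genes had slightly higher averages, but the size and sign of the difference varied between genes and between libraries. Of the 44 genes, 33 had a positive log2 difference and 11 a negative one, with a median of 0.22, while 47.0% of all 11664 tested genes had a positive difference and their median was -0.03. No member passed the threshold in either direction (limma on log2(FPKM + 1), adjusted p from 0.070 to 0.99), where 2.07% of tested genes did (1.5% higher and 0.574% lower). At an unadjusted p under 0.05 there were 10 members against 19.7% of tested genes, with 8 higher and 2 lower (18.2% and 4.55%) against 10.5% and 9.16%. In the authors' deposited table, which tests counts, 4 members were higher and 0 lower at an adjusted p under 0.05, against 5.08% and 2.49% of its 14522 genes with an adjusted p (7.56% in either direction). By unadjusted p under 0.05 in the authors' deposited table, 11 members were higher and 2 lower, against 11.2% and 7.63%. The 4 members called there by adjusted p were Ccne1, Rrm2, Gins4 and Pole2. The sign of the difference was the same for all 44 members in the authors' deposited table and in limma on FPKM.

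**Figure D1:**
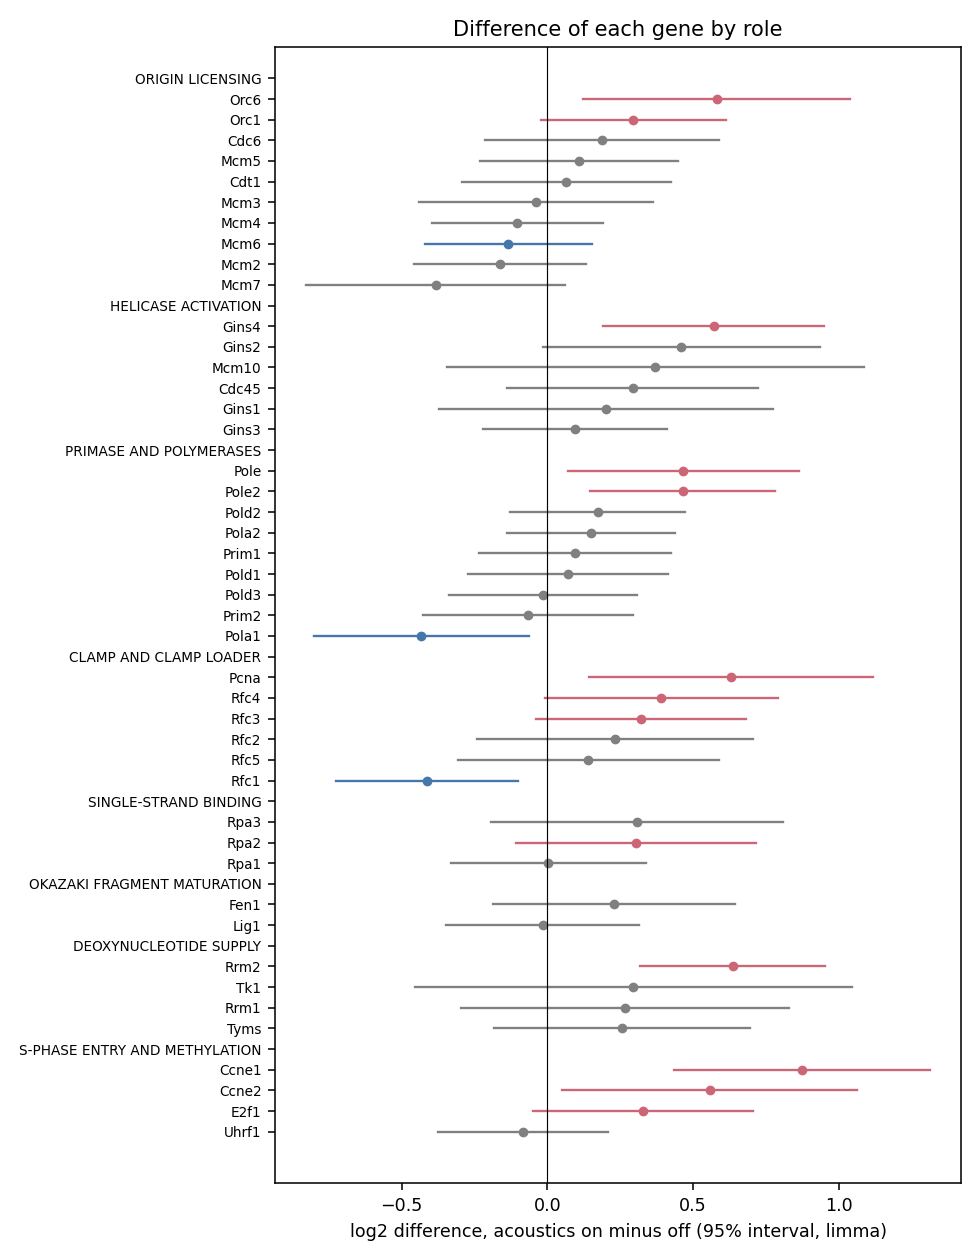
Log2 difference, acoustics on minus off, of each of the 44 genes with its 95% limma interval, grouped by role. Red marks genes whose 3 acoustics-on libraries all lay above the 3 acoustics-off libraries (13 genes), blue those that all lay below (3 genes) and grey the rest.

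The values of all 6 libraries separated the groups for 16 members (36.4%), against 34.8% of tested genes. The 3 acoustics-on libraries all lay above the 3 acoustics-off libraries for 13 members (29.5%), against 17.1% of tested genes, and all below for 3 members (6.82%), against 17.7%. The 13 were Orc1, Orc6, Gins4, Pole, Pole2, Pcna, Rfc3, Rfc4, Rpa2, Rrm2, Ccne1, Ccne2 and E2f1. The 3 were Mcm6, Pola1 and Rfc1. Without acoustics-on replicate 1, the library with the widest spread of deviations over all tested genes (quartiles of -0.50 and 0.42 against the acoustics-off mean), the counts were 13 higher and 6 lower, against 22.4% and 23.3% of tested genes. The 3 additional genes on the lower side were Mcm3, Mcm4 and Cdt1. Leaving out a library cannot undo a separation, so these counts could not fall.

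In FPKM as deposited, acoustics-on replicate 1 held the highest value of the 6 libraries for 25 of the 44 members (56.8%), against 34.7% of tested genes, and the lowest value for 8 members (18.2%), against 39.2% of tested genes. Set against the acoustics-off mean on the log2 scale, the median member stood at 0.40 in that library, at 0.21 in the second acoustics-on library and at -0.04 in the third. The same medians over all tested genes were -0.04, 0.00 and -0.01. Acoustics-off replicate 1 was at the low end within its own group, with the lowest value of all 6 libraries for 17 members (38.6%, against 15.3% of tested genes) and a median of -0.07. Without acoustics-on replicate 1 the median log2 difference of the 44 genes was 0.06, and 31 were above 0. The log2 differences of 20 members were then over 1.5 times nearer to 0, those of 4 over 1.5 times further from it, and those of 6 (Cdt1, Gins1, Prim2, Pold1, Pold3 and Rrm1) of the other sign. The totals over all genes were unequal, at 1000720, 824063 and 716509 FPKM in the 3 acoustics-on libraries and 821818 to 840707 FPKM with acoustics off. As a share of these totals the 44 genes summed to 0.115%, 0.116% and 0.115% with acoustics on and to 0.0898%, 0.0991% and 0.1003% with acoustics off, so on that scale, which the highest genes dominate, acoustics-on replicate 1 did not stand above the other acoustics-on libraries. Without Pcna, the highest of the 44, the shares were 0.0826%, 0.0889% and 0.0877% with acoustics on. They were then 0.0723%, 0.0792% and 0.0810% with acoustics off, so the groups lay closer together.

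**Figure D2:**
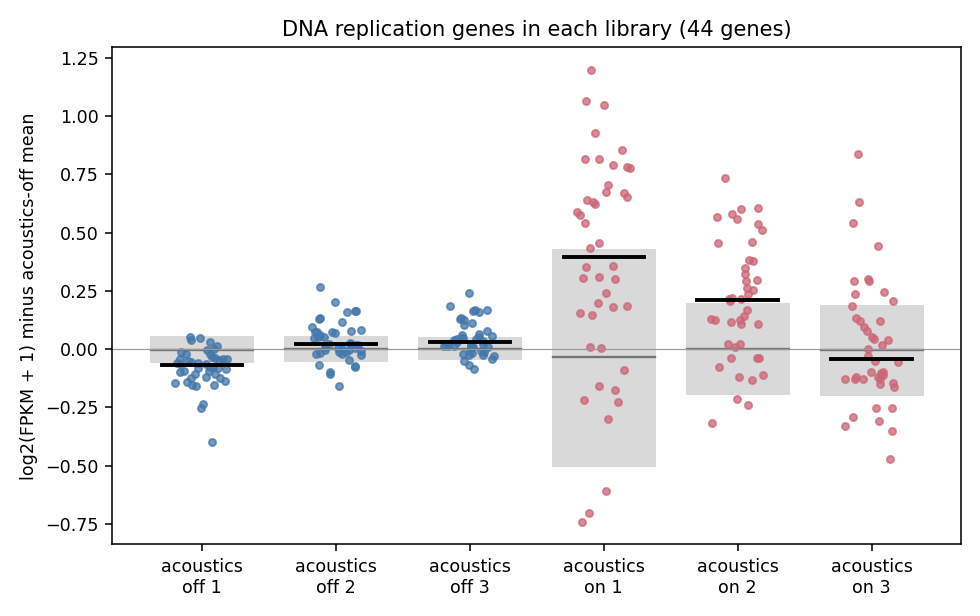
Each point is 1 of the 44 genes in 1 library, as log2(FPKM + 1) minus the mean of the acoustics-off libraries, with the median of the 44 genes as a black bar. Grey boxes span the 25th to 75th percentile of all tested genes. The black bars of the acoustics-on libraries sit at 0.40, 0.21 and -0.04, and the first of them also has the widest grey box.

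The libraries matched the labelled cell type. All 10 macrophage markers examined were at 0.5 FPKM or more in every library. Of markers of other types, 1 of 4 T cell, 1 of 3 B cell, 1 of 4 epithelial and 2 of 3 endothelial genes were listed, and their highest value was 0.19 FPKM. The 5 fibroblast markers were all listed, summed to 1.30 to 2.02 FPKM with acoustics off and 0.757 to 3.08 FPKM with acoustics on, and reached at most 1.45 FPKM. The summed macrophage markers ranged from 29060 to 31272 FPKM with acoustics off and from 21019 to 27693 FPKM with acoustics on, and 77.8% to 83.8% of the sum was Lyz2. Without Lyz2 the sum was 5109 to 5351 FPKM with acoustics off and 4232 to 4663 FPKM with acoustics on. The markers did not move as 1 set. All acoustics-on libraries were below all acoustics-off libraries for 6 of the 10 (Adgre1, Csf1r, Cd68, Itgam, Lyz2 and Mertk), against 17.7% of tested genes. The groups overlapped for the other 4 (Cd14, Fcgr1, Spi1 and Cybb). The part of these shifts in the results was not tested. In the authors' deposited table the 44 genes had means of 152 to 11364 normalised counts, for which counting error amounts to 0.938% to 8.10% of the mean.

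Promoters of 36 of the 44 genes were matched in RefSeq (GRCm38.p6), as 42 windows from 250 bases before to 50 bases after a transcription start. All windows of Cdc6, E2f1 and Mcm7 lay inside the gene as annotated in GENCODE. For these genes the bases before the annotated gene start were not searched. An E2F core, searched on both strands as TTGGCGC or TTCGCGC or TTCCCGC, with overlapping matches counted, was present in 25 of the 42 windows (59.5%), against 8.07% of all 32851 windows in the table and 10.6% of those of protein-coding genes. CCAAT was found in 57.1% of member windows, against 37.4% of all windows and 37.8% of those of protein-coding genes. GGGCGG was found in 73.8%, against 35.7% and 47.7%, and TTTGAA, the letters of the cell cycle homology region, in 11.9%, against 17.9% and 15.2%. Among the 22 genes with an E2F core in a window the median log2 difference was 0.09, compared with 0.29 among the 14 without one, E2f1 included. Ccne2, Gins1, Gins2, Gins4, Mcm4, Pole, Prim2 and Rfc2 had no window and are in neither set. Their differences ran from -0.10 for Mcm4 to 0.57 for Gins4. Whether the sets differ was not tested. The 5 genes with at least 3 matches in 1 window had a median of -0.13, and 4 of these 5 encode MCM subunits (Mcm3, Mcm5, Mcm6 and Mcm7). The windows below were chosen after their values were seen, to show how much members differ. Ccne1 and Rrm2, with the 2 largest positive differences, had 0 matches, Pole2 had 1, Mcm6 had 5 and Pola1 had 4. Mcm2 and Rfc3 show other pairings, with 0 matches and a difference of -0.16, and with 2 matches and a difference of 0.32. Mcm5 had 3 matches and a difference of 0.11. Each is written 5′ to 3′ along the gene, with E2F cores in capitals. They are Ccne1 at chr7:38107441-38107740 (minus strand), Rrm2 at chr12:24708004-24708303 (plus strand), Pole2 at chr12:69228141-69228440 (minus strand), Mcm2 at chr6:88898731-88899030 (minus strand), Rfc3 at chr5:151651159-151651458 (minus strand), Mcm6 at chr1:128359656-128359955 (minus strand) and Pola1 at chrX:93632106-93632405 (minus strand).
Ccne1: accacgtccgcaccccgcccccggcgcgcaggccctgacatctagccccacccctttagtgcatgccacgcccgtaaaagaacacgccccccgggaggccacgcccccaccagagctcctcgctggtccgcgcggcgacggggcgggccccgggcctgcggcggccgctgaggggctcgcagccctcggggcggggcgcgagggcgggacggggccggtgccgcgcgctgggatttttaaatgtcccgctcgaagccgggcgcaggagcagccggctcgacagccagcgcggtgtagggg
Rrm2: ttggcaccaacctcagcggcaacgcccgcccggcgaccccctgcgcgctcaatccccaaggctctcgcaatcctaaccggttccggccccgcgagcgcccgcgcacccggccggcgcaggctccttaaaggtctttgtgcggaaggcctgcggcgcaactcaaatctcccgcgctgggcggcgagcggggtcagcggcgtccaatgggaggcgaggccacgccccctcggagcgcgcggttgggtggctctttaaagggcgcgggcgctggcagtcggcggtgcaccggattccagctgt
Pole2: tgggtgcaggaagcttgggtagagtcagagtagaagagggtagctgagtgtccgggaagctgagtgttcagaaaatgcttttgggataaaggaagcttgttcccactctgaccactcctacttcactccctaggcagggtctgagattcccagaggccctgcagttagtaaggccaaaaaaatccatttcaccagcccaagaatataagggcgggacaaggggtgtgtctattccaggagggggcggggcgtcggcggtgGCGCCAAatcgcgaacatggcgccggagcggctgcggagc
Mcm2: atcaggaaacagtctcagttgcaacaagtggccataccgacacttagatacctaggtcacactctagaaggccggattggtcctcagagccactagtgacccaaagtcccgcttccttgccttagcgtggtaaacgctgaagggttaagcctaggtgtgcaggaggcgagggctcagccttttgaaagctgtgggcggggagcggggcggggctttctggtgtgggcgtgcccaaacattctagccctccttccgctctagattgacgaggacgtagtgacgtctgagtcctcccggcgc
Rfc3: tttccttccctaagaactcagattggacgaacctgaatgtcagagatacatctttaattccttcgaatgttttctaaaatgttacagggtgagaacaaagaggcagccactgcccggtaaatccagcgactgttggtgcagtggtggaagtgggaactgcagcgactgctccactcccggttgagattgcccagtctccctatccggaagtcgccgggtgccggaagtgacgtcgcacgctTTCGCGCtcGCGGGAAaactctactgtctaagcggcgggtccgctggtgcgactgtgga
Mcm6: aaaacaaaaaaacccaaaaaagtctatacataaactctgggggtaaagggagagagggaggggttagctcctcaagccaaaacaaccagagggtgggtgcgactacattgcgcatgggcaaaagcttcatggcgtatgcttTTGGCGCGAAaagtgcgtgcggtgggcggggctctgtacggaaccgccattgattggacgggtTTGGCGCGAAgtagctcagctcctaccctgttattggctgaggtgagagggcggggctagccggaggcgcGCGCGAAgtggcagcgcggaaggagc
Pola1: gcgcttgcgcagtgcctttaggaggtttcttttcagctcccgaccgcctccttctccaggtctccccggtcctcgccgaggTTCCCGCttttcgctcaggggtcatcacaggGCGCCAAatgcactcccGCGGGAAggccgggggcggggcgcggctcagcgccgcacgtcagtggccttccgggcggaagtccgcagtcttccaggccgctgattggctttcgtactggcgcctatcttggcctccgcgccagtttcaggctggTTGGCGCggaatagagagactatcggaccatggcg
In Mcm6 the matches form 2 pairs of overlapping cores on opposite strands, at -109 to -100 and -46 to -37 from the start, and a single core at 25 to 31. In Pola1 they lie at -169, -138 and -121 before the start and at 16 after it, and in Pole2 the core lies at 11 to 17. In Rfc3 the cores lie at -9 to -3 and at 1 to 7. The window of Ccne1 holds 4 GGGCGG boxes and that of Rrm2 holds 2, with a CCAAT at -50. A match is a run of letters and not a measured binding site.

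Among the genes of S-phase entry, cyclin E1 had the largest difference of all 44. Ccne1 (chromosome 7, 38097984 to 38107534, minus strand, GRCm38) was at 4.66, 5.67 and 4.62 FPKM in acoustics-off replicates 1, 2 and 3 and at 12.7, 7.92 and 9.66 FPKM in acoustics-on replicates 1, 2 and 3. All 3 acoustics-on libraries were above all 3 acoustics-off libraries, and the ratio of the means was 2.03. Its log2 difference was 0.87 (95% interval 0.43 to 1.31, limma adjusted p = 0.073), and the authors' deposited table gave a log2 fold change of 1.02 (adjusted p = 0.00096 there). With acoustics-on replicate 1 left out it passed the threshold (log2 difference 0.71, limma adjusted p = 0.029), as it did with acoustics-on replicate 2 left out (1.02, limma adjusted p = 0.049). It did not pass with any of the other 4 libraries left out (adjusted p from 0.11 to 0.33) or with the replicate block (adjusted p = 0.13).

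Ccne2, the second E-type cyclin gene, was at 2.73, 4.91 and 4.38 FPKM with acoustics off and at 5.06, 7.18 and 6.62 FPKM with acoustics on. The groups were only just separate, at 5.06 FPKM in the lowest acoustics-on library against 4.91 FPKM in the highest acoustics-off library. The log2 difference of Ccne2 was 0.56 (95% interval 0.05 to 1.06, limma adjusted p = 0.23). E2f1, an E2F activator of S-phase genes, was at 14.5, 15.0 and 15.5 FPKM with acoustics off and at 23.8, 16.3 and 17.8 FPKM with acoustics on (log2 difference 0.33, 95% interval -0.05 to 0.71, and 0.18 without acoustics-on replicate 1). Uhrf1, which recruits the maintenance DNA methyltransferase to newly copied DNA, averaged 10.6 ± 0.85 FPKM in the undriven and 9.95 ± 0.49 FPKM in the driven libraries (SD, n = 3), with overlap.

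Among 10 origin licensing genes, 5 had a positive and 5 a negative difference, with a median of 0.01. Orc6 (chromosome 8, 85299632 to 85308278), a recognition complex subunit, was at 8.26, 7.52 and 8.01 FPKM with acoustics off and at 16.01, 12.6 and 9.31 FPKM with acoustics on, so that the groups did not overlap although acoustics-on replicate 3 lay close to the acoustics-off libraries. For Orc6 the log2 difference was 0.58 (95% interval 0.12 to 1.04, limma adjusted p = 0.19). Orc1, the ATPase subunit and the lowest of the 44 genes, was at 0.99, 1.32 and 1.04 FPKM with acoustics off and at 1.34, 1.59 and 1.88 FPKM with acoustics on. Its groups were only just separate, and its log2 difference was 0.29 (95% interval -0.02 to 0.61, limma adjusted p = 0.28). At this low level the value depended on scale: it was 0.48 with a pseudocount of 0.1 and 0.52 in the authors' deposited table. Cdc6, the loading ATPase, had a log2 difference of 0.19 and Cdt1, its partner, one of 0.07, and the groups overlapped for both. Without acoustics-on replicate 1 they were at 0.05 and -0.08, and Cdt1 was at -0.03 with the length and GC correction.

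Of the 6 genes of the MCM2 to MCM7 helicase, 5 had a negative log2 difference and Mcm5 a positive one, with a median of -0.12, a range from -0.38 to 0.11 and limma adjusted p from 0.30 to 0.90. Without acoustics-on replicate 1, Mcm7 was at -0.20 and Mcm3, which is at -0.04 with all libraries, was at -0.21. These signs depended on scaling: Mcm3 was at 0.02 with the libraries centred on their medians, and Mcm3, Mcm4 and Mcm6 were at 0.01, 0.00 and 0.06 with the length and GC correction. Mcm7 (chromosome 5, 138164583 to 138172422, minus strand) was at 31.3, 30.4 and 36.6 FPKM with acoustics off and at 19.1, 30.9 and 25.8 FPKM with acoustics on. Acoustics-on replicates 1 and 3 were below the acoustics-off libraries, while replicate 2 was among them. Mcm2 was at 15.7, 17.3 and 16.3 FPKM with acoustics off and at 13.2, 15.97 and 14.7 FPKM with acoustics on, with overlap in 1 library. Mcm6 was at 32.3, 32.9 and 39.0 FPKM and then at 30.6, 31.8 and 32.0 FPKM, so its groups were only just separate. Mcm4 was at 11.1, 12.0 and 12.4 FPKM with acoustics off and at 11.9, 10.04 and 10.96 FPKM with acoustics on. The interval of each of the 6 differences lay between -0.83 and 0.45. On the per-length FPKM scale the highest of the 6 subunits was 2.94 times the lowest with acoustics off and 2.87 times with acoustics on.

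All 6 helicase activation genes had positive differences, with a median of 0.33, although Gins1 turned to -0.05 with the length and GC correction and to -0.02 without acoustics-on replicate 1. Gins4 (chromosome 8, 23226616 to 23237659, minus strand), a subunit of the GINS complex, was at 21.3, 25.1 and 22.9 FPKM with acoustics off and at 41.3, 35.5 and 28.5 FPKM with acoustics on. All acoustics-on libraries were higher, and the log2 difference was 0.57 (95% interval 0.19 to 0.95, limma adjusted p = 0.14). The authors' deposited table gave Gins4 a log2 fold change of 0.60 (adjusted p = 0.040 there). The 3 other GINS genes overlapped between groups, with log2 differences of 0.46 for Gins2, 0.20 for Gins1 and 0.10 for Gins3. Mcm10, which helps to start the active helicase, was at 7.89 FPKM in acoustics-on replicate 1 and at 2.56 to 3.89 FPKM in the other 5 libraries. The log2 difference of 0.37 became 0.02 without acoustics-on replicate 1. Cdc45 was likewise highest in acoustics-on replicate 1, at 8.92 FPKM, and at 4.77 to 6.21 FPKM elsewhere.

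The 9 primase and polymerase genes lay on both sides of 0, with 6 above and 3 below. Pola1, the catalytic subunit of polymerase alpha, which starts each new strand together with primase, had the largest negative difference of the 44 genes. Pola1 (chromosome X, 93304767 to 93632155, minus strand) was at 3.72, 3.48 and 3.68 FPKM with acoustics off and at 1.84, 2.91 and 2.63 FPKM with acoustics on, and the groups did not overlap. Pola1 had a log2 difference of -0.43 (95% interval -0.80 to -0.06, limma adjusted p = 0.21). Its accessory subunit gene Pola2 had a log2 difference of 0.15, and the primase genes Prim1 and Prim2 had 0.09 and -0.07.

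Both polymerase epsilon genes were on the other side. Pole2 (chromosome 12, 69201773 to 69228195, minus strand), the second subunit of this leading-strand polymerase, was at 3.58, 3.79 and 4.00 FPKM with acoustics off and at 5.97, 6.05 and 4.87 FPKM with acoustics on. The log2 difference of Pole2 was 0.46 (95% interval 0.15 to 0.78, limma adjusted p = 0.14), and it was 0.57 in the authors' deposited table (adjusted p = 0.047 there). Pole, the catalytic subunit and the longest of the 44 transcripts at 7163 bases, was at 2.78, 2.87 and 3.03 FPKM with acoustics off and at 5.67, 4.06 and 3.61 FPKM with acoustics on. The groups did not overlap for either gene. The lagging-strand polymerase delta genes Pold1, Pold2 and Pold3 differed by -0.01 to 0.17, and each interval included 0.

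**Figure D3:**
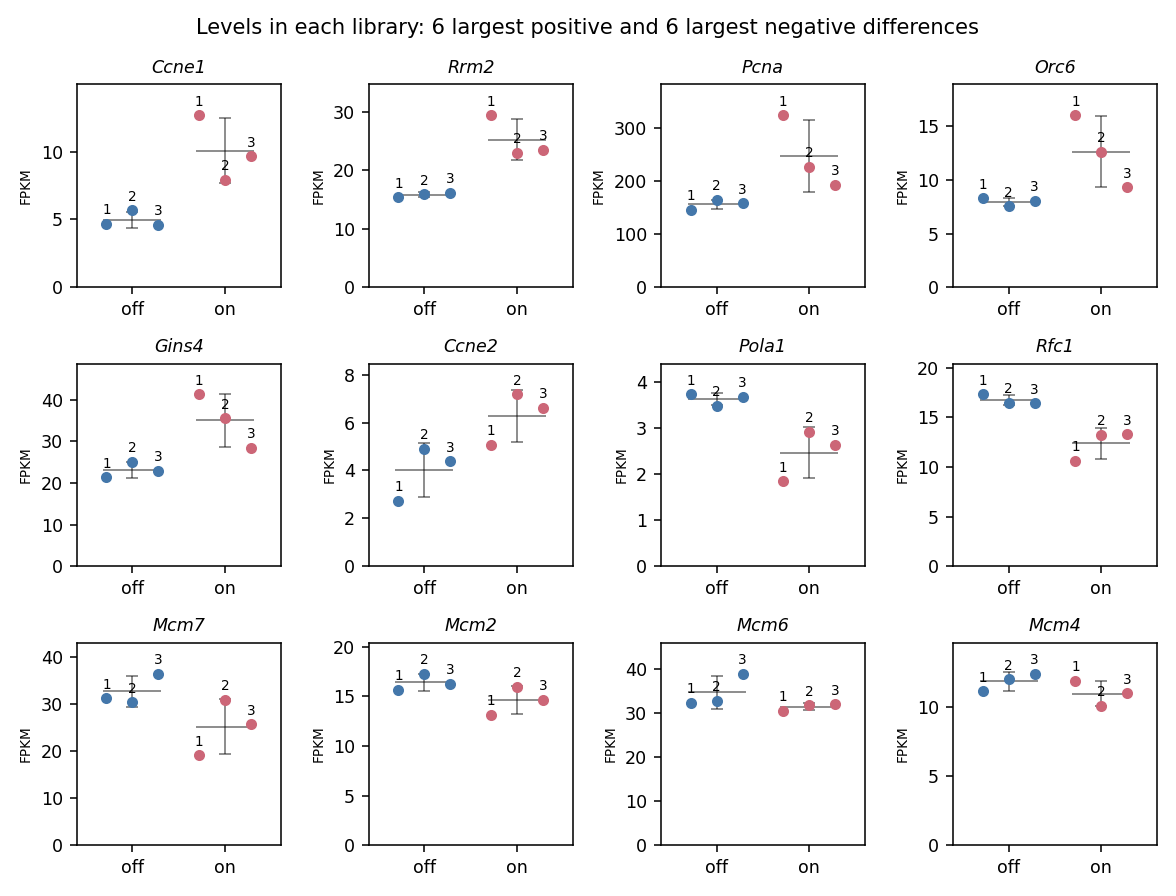
FPKM in each library (points numbered by replicate, with mean and SD, n = 3) for the 6 genes with the largest positive and the 6 with the largest negative log2 difference. In the first 6 panels and in Pola1, Rfc1 and Mcm6 the groups do not overlap, while in Mcm7, Mcm2 and Mcm4 they do.

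The sliding clamp and its loader contained both directions. Pcna (chromosome 2, 132249162 to 132253314, minus strand), the clamp that holds polymerases on DNA, had the highest level of the 44 genes. It was at 146.6, 164.5 and 158.5 FPKM with acoustics off and at 324.7, 227.3 and 192.9 FPKM with acoustics on, with no overlap. The difference on the log2 scale was 0.63 (95% interval 0.14 to 1.12, limma adjusted p = 0.18), 0.42 without acoustics-on replicate 1, and 0.67 in the authors' deposited table (adjusted p = 0.055 there). The annotation used holds 2 processed pseudogenes named after Pcna, so reads shared with them leave its level uncertain. Pseudogenes were searched only by the symbols of the 44 genes, so those under other names were not seen for any member. Rfc1 (chromosome 5, 65261850 to 65335670, minus strand), the large subunit of the clamp loader, was at 17.3, 16.4 and 16.4 FPKM with acoustics off and at 10.6, 13.2 and 13.3 FPKM with acoustics on. All acoustics-on libraries were lower, with a log2 difference of -0.41 (95% interval -0.72 to -0.10, limma adjusted p = 0.17). The 4 small loader subunits had positive differences, from 0.14 for Rfc5 to 0.39 for Rfc4, and Rfc3 and Rfc4 had groups that did not overlap. Without acoustics-on replicate 1 these differences were 0.01 for Rfc2, 0.20 for Rfc3, 0.23 for Rfc4 and 0.03 for Rfc5.

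Replication protein A, which coats single-stranded DNA, had a median log2 difference of 0.30 over its 3 genes, and the 2 genes of Okazaki fragment maturation stood at 0.23 and -0.02. Rpa1, the large subunit of replication protein A and the second highest of the 44 genes, was at 43.8, 45.9 and 45.8 FPKM with acoustics off and at 38.4, 52.7 and 45.8 FPKM with acoustics on (log2 difference 0.00, 95% interval -0.33 to 0.34). Rpa3, the smallest subunit, was at 29.5, 35.6 and 32.7 FPKM and then at 52.4, 42.7 and 29.6 FPKM, with acoustics-on replicate 3 among the acoustics-off libraries. Rpa2 was at 12.3, 12.9 and 12.2 FPKM with acoustics off and at 20.2, 14.5 and 12.95 FPKM with acoustics on, so its groups were only just separate. Fen1, the flap nuclease that trims Okazaki fragments, was at 16.9, 16.9 and 17.6 FPKM with acoustics off and at 26.3, 18.8 and 16.8 FPKM with acoustics on. Without acoustics-on replicate 1, Rpa2 and Rpa3 were both at 0.13 and Fen1 at 0.05. The ligase gene Lig1 had a log2 difference of -0.02 (95% interval -0.35 to 0.32).

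Deoxynucleotide supply held the second largest difference. Rrm2 (chromosome 12, 24708241 to 24714146, plus strand), the small subunit of ribonucleotide reductase whose level limits the enzyme in S phase, was at 15.4, 15.9 and 16.2 FPKM with acoustics off and at 29.4, 23.0 and 23.5 FPKM with acoustics on. For Rrm2 every acoustics-on library was higher than every acoustics-off library. Its log2 difference was 0.64 (95% interval 0.32 to 0.95, limma adjusted p = 0.070), the smallest adjusted p of the 44 genes. The authors' deposited table gave 0.68 (adjusted p = 0.0023 there). With acoustics-on replicate 1 left out it passed (0.53, limma adjusted p = 0.014), but not with any of the other 5 libraries left out (adjusted p from 0.071 to 0.35) or with the replicate block (adjusted p = 0.17).

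Its partner Rrm1, the large subunit, did not separate the groups. Rrm1 was at 23.5, 24.1 and 25.9 FPKM with acoustics off and at 43.8, 26.5 and 22.3 FPKM with acoustics on, and its log2 difference of 0.27 was -0.01 without acoustics-on replicate 1. The salvage kinase gene Tk1 was at 18.4, 20.4 and 22.4 FPKM with acoustics off and at 35.9, 30.6 and 14.4 FPKM with acoustics on, so its acoustics-on libraries held both the highest and the lowest values. Tyms, which encodes thymidylate synthase, averaged 5.79 ± 0.33 and 7.24 ± 1.76 FPKM (SD, n = 3) with overlap. The annotation used also holds a processed pseudogene of Tyms, so shared reads leave the level of Tyms uncertain.

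Transcript length moved with the differences. Across the 44 genes the rank correlation of the log2 difference with the length of the longest coding transcript was -0.43, and across 10453 tested coding genes it was -0.49. The genes share the same 6 libraries, so these values are descriptions. For the deviations of single acoustics-on libraries the members had -0.37, -0.53 and -0.22, and all tested coding genes -0.59, -0.47 and 0.03. Among the 22 shorter genes the median difference was 0.30 with 21 above 0, and among the 22 longer genes it was 0.04 with 12 above 0. With trends on transcript length and GC content divided out of each library, the shorter and the longer genes each had a median of 0.17, against 0.00 over all tested coding genes, and 34 members were above 0. Groups then did not overlap for 13 members on the higher side and 2 on the lower, against 18.3% and 18.1% of tested genes. Ccne1 (0.78, limma adjusted p = 0.041) and Rrm2 (0.57, limma adjusted p = 0.042) passed with this correction. The part of length in the results was not tested further. The differences of Pola1 and Rfc1 were then -0.25 and -0.20 (limma adjusted p = 0.20 and 0.25), and that of Mcm7 was -0.34. Pole, the longest of the 44, stood at 0.76 with the correction (adjusted p = 0.19).

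**Figure D4:**
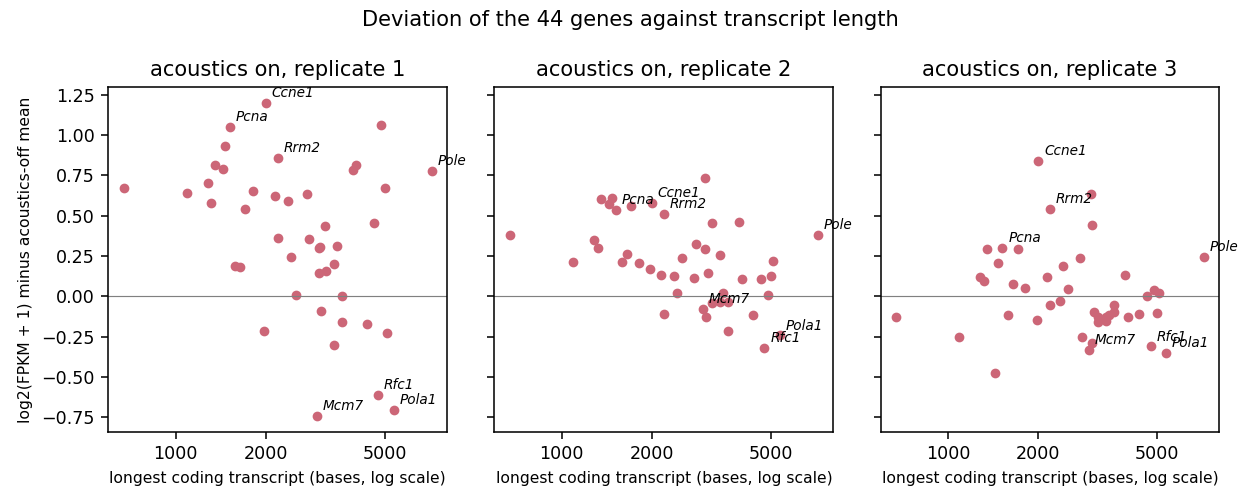
Log2(FPKM + 1) of the 44 genes minus the acoustics-off mean against the length of the longest coding transcript (log scale), in each acoustics-on library. Rfc1 and Pola1 lie at the lower right in all 3 panels, Ccne1 lies high in all 3, and Pole is long and above 0 in all 3.

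Which members passed the limma threshold depended on the libraries and the processing. The members called higher were Ccne1 and Rrm2 without acoustics-on replicate 1 (against 4.75% of tested genes, with 3.08% lower), and Ccne1 without acoustics-on replicate 2 (2.08%, with 1.32% lower). They were Ccne1 and Rrm2 with the length and GC correction (2.85%, with 2.07% lower), and Ccne1, Gins4, Pcna and Rrm2 with this correction and acoustics-on replicate 1 left out (6.31%, with 4.99% lower). Rrm2 was called with quantile normalization (1.79%, with 0.952% lower). In each of these, 0 members were called lower. With libraries weighted by their spread, Ccne1, Gins4, Orc6, Pcna, Pole, Pole2 and Rrm2 were called higher (15.9% of members, against 9.41% of tested genes) and Rfc1 lower (2.27%, against 6.72%). The weights were 0.091, 1.70 and 0.339 for acoustics-on replicates 1, 2 and 3, and 2.14, 2.71 and 3.28 for the acoustics-off libraries. Acoustics-on replicate 2 thus carried most of the weight of its group, and these calls rest largely on that library.

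Other genes that act in or around S phase were examined by role, and 0 of 110 tested genes in 8 lists passed the limma threshold, while 11 (10.0%) were higher and 6 (5.45%) lower at an unadjusted p under 0.05, against 10.5% and 9.16% of all tested genes. The authors' deposited table called 5 of them higher (Dbf4, Myc, Cdkn1a, Kif20a and Gadd45a) and 1 lower (Brca2), or 4.55% and 0.909% of them, against 5.08% and 2.49% of all its genes. These shares lie near or below those over all genes, so the named calls are values of single genes and not a result about the lists. The same holds for Dbf4, Cdkn1a and Kif20a, which passed without acoustics-on replicate 1 (limma adjusted p = 0.049, 0.039 and 0.036). In that setting 4.75% of all tested genes were called higher and 3.08% lower. Among 13 further origin and firing factors, the median log2 difference was -0.05, and Dbf4, which activates the CDC7 kinase at origins, was at 6.65, 6.67 and 7.08 FPKM with acoustics off and at 10.4, 9.30 and 9.03 FPKM with acoustics on. In the authors' deposited table Dbf4 was higher (log2 fold change 0.49, adjusted p = 0.022 there). Mcmbp, an MCM-binding protein gene, had a log2 difference of -0.26. Medians were 0.10 over 17 other fork proteins, with Atad5, which unloads PCNA, at -0.26 and Tipin, a fork protection gene, at 0.30. Over 9 chromatin assembly genes the median was 0.22, with the histone chaperone genes Nasp at 0.41 and Supt16 at -0.41. Over 10 nucleotide enzymes it was -0.08, with Samhd1, which breaks down deoxynucleotides, at -0.34 and Dtymk, which makes thymidine diphosphate, at 0.45.

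Among regulators of the G1 to S transition, Myc, a growth-promoting transcription factor gene, was at 1.95, 2.76 and 2.53 FPKM with acoustics off and at 8.41, 3.97 and 8.21 FPKM with acoustics on, and Ccnd1, which encodes cyclin D1, had a log2 difference of 0.44. The median over the 15 regulators was 0.06. Of 11 inhibitors tested, with a median of -0.13, the CDK inhibitor gene Cdkn1a was at 333.8, 321.4 and 320.2 FPKM with acoustics off and at 491.4, 424.2 and 440.8 FPKM with acoustics on. Rb1, which encodes the retinoblastoma protein, was at 17.8, 16.1 and 15.4 FPKM and then at 7.14, 10.5 and 12.6 FPKM. The authors' deposited table called Myc (log2 fold change 1.51, adjusted p = 0.00029 there) and Cdkn1a (0.48, adjusted p = 0.0097 there) higher, while Rb1 missed (-0.71, adjusted p = 0.052 there).

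Genes of mitosis, which follow the replication genes in the cycle, had a median log2 difference of 0.09 over 25 genes, with 14 above 0. Kif20a, a motor protein gene of cytokinesis, was at 1.49, 1.19 and 1.63 FPKM with acoustics off and at 3.33, 3.12 and 2.54 FPKM with acoustics on, and Kif23, another such motor, had a log2 difference of -0.36. In the authors' deposited table Kif20a was higher (1.06, adjusted p = 0.00018 there). In the 3 acoustics-on libraries the mitosis median stood at 0.16, 0.11 and -0.04 against the acoustics-off mean, where the replication genes had 0.40, 0.21 and -0.04. Whether the 2 lists differ was not tested. In a list of 10 DNA damage response genes, with a median of -0.13, the authors' deposited table called Gadd45a higher (1.13, adjusted p = 0.0037 there) and Brca2 lower (-0.74, adjusted p = 0.017 there).

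The genes outside the list whose levels followed the mean of the 44 most closely over the 6 libraries, among 8113 with a mean of at least 5 FPKM, were Paip2, Pdcd6, Ssna1, Ubl4a and Ogg1, with Pearson r from 0.995 to 0.997 as a description of libraries that differ in many genes at once. Each was highest in acoustics-on replicate 1 and lowest in acoustics-off replicate 1, as was the mean of the 44 genes.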

How the data were processed

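RNA from 3 acoustics-off and 3 acoustics-on libraries was compared. The first deposited table holds FPKM per gene in each library. The second is the authors' comparison, deposited as a mean signal of normalised counts, a log2 fold change and its error, a Wald score, a p-value and an adjusted p-value for each gene. The submitters' processing notes name DESeq2 1.38.2, Salmon 1.4.0, STAR 2.7.11 and Trim Galore 0.6.8, with GRCm38 as the build; their settings are unknown. The labels' protocols name a ribosomal RNA depletion kit, whereas the molecule field gives polyA RNA. No strand setting is stated, and 19 of the 44 genes overlap another annotated gene, so reads may be shared there.

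The members and lists were chosen with earlier results of these data known. A gene was tested where 3 libraries or more had an FPKM of 0.5 or above, which kept 11664 genes and all 44 members. The test was limma 3.58.1 in R 4.3.3 on log2(FPKM + 1), which understates changes of low genes, with a trended robust prior and Benjamini-Hochberg adjustment over all tested genes at 0.05. The code was run on simulated data with independent noise per gene and the same spread in both groups. That run does not cover shifts shared by the genes of a library or the wider acoustics-on spread. No pair of libraries shared equal values above 0. FPKM carries no depth per library, so precision was read from the mean counts in the authors' table. Values in every library were given for the 6 largest differences each way, the 4 highest genes and the smallest p in each role, and the 2 genes of smallest p were named from each other list. Other members shown in full were chosen after their values were seen. Lengths and coordinates came from GENCODE M21 (GRCm38). The length and GC correction divided a loess trend (span 0.5), fitted on coding genes whose mean FPKM reached 1, out of each library. Alternatives were pseudocounts, filters, scalings, a replicate block, a prior that is not robust, library weights and each library left out.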

Additional observations from a re-analysis of the deposited data

How the results depend on the processing

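The median log2 difference of the 44 genes stayed above 0 in all 18 alternatives, from 0.06 to 0.35, and 28 genes kept their sign in all of them (24 above 0 and 4 below). The count of members past the threshold was 0 each way with the settings of the report. Of the higher members, it was 1 with quantile normalization (Rrm2), 2 with the length and GC correction, 4 with that correction and acoustics-on replicate 1 left out (Ccne1, Gins4, Pcna and Rrm2), and 7 with gene-by-gene library weights, which also called 1 lower. With 1 library left out it ranged from 0 to 2 higher, and was 0 lower. Over all genes, 242 passed (175 higher, 67 lower), 150 with no filter on low values, 574 with the correction, 1318 with the correction and acoustics-on replicate 1 left out, and 1882 with the weights. With 1 library left out the count ranged from 19 to 913. Leaving out an acoustics-off library gave 32, 19 or 29, and leaving out an acoustics-on library gave 913, 397 or 78, in replicate order; the cause was not tested. The share of calls that were higher was 72.3%, and 65.3% with quantile normalization, 82.2% with equal library totals, 58.0% with the correction, 58.3% with the weights and 55.8% with the correction and replicate 1 left out. The weights and equal library totals were chosen after seeing the data. The weights were fitted gene by gene, since the default fit of weights did not converge. Within the acoustics-on group the weights rested mostly on replicate 2. With the replicate block 179 genes and 0 members passed. Same-numbered libraries did not deviate together (r of -0.07, -0.02 and 0.00 over tested genes). The labels do not say whether the numbers pair them, and values from so few libraries cannot decide it. FPKM without counts limits what can be said of depth per library.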
